A study of Homo sapiens with 6 samples.

Results

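The 10 genes described here encode subunits of the transcription factor NF-kB and proteins that regulate it, not all of which only restrain it: NFKB1, NFKB2, RELB, NFKBIA, NFKBIE, NFKBIZ, TNFAIP3, TNIP1, BCL3 and BIRC3. The 10 were chosen by name for their roles, with earlier results of these data known, and are among the 37902 genes in the deposited table. The cells were ARPE-19, an established human line from the retinal pigment epithelium (RPE), the cell layer that supports the photoreceptors. Wildtype (WT) is the ARPE19 line itself, and POLDIP2 KO is the ARPE19 line transduced with a lentiviral vector for SpCas9 and 1 sgRNA to the POLDIP2 coding sequence and then selected with puromycin. Both lines were under regular maintenance and were labelled day 3, with 3 biological replicates each, and the comparison asks how the RNA of the knockout line differs from that of WT. The knockout line was expanded from selected cells and is not described as a clone. No line transduced with a control virus is among the 6 libraries, so the effects of transduction and selection and of POLDIP2 loss cannot be told apart.

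NF-kB is a family of dimeric transcription factors that inhibitors of the IkB family hold inactive in the cytoplasm. Signals from receptors for tumour necrosis factor, interleukin-1 or microbial products activate IkB kinases, the inhibitors are degraded, and the dimers enter the nucleus and bind short DNA elements called kB sites. Many of the genes that NF-kB switches on encode its own inhibitors, which gives the pathway negative feedback, and RPE cells are known to respond to inflammatory cytokines through it.

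Reads assigned to genes, recovered from the normalised counts by division, summed to 31532797 to 45795509 a library. The 10 genes had 127 to 8774 such reads in each library. The targeted gene, POLDIP2, followed the labels, at 4515 ± 516 normalised counts in WT against 1151 ± 92.8 in POLDIP2 KO (SD, n = 3 libraries each). Of 11 RPE marker genes, 9 had a value above 0 in at least 1 library, and 8 averaged at least 10 normalised counts. The 11 summed to 5277 to 5573 normalised counts in the WT libraries and 4487 to 6134 in POLDIP2 KO. Most of the sum came from MITF, at 3463 to 4401 in WT and 2955 to 4503 in POLDIP2 KO. BEST1 ranged from 61.4 to 562 in WT and from 239 to 669 in POLDIP2 KO, and TYR reached 2.98 at most. RPE65 and TTR were at 0 in every library. The 6 leukocyte markers summed to 29.3 to 60.2 normalised counts in WT and 34.4 to 39.7 in POLDIP2 KO, with CD3E at 0 throughout. The 4 with a value above 0 went in both directions. ITGAM averaged 23.2 ± 17.4 normalised counts in WT against 9.49 ± 5.64 in POLDIP2 KO and LYZ 24.5 ± 5.23 against 19.0 ± 5.17, both with a limma adjusted p of 0.9998 (SD, n = 3 libraries each). CD14 at 1.70 ± 1.54 against 4.39 ± 1.87 and PTPRC at 0 in WT against 3.81 ± 2.90 in POLDIP2 KO were too low to be tested. The 3 endothelial markers summed to 15.7 to 38.7 and 15.9 to 48.8. The part of such cells in the differences below was not tested. In bulk RNA, more cells that express a gene and more RNA per cell cannot be told apart.

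The promoters of these genes are shown because kB sites near the start are known from several feedback inhibitor genes. RefSeq start sites on GRCh38.p14 were found for 8 of the 10 genes, all but RELB and NFKBIE, with 13 windows of the 250 bases before a start. The kB consensus, a 10-letter motif searched by exact match on both strands, was present in 9 of the 13 windows, against 5.21% of all 35116 promoter windows. Those 9 windows belonged to 7 of the 8 genes, a count per gene that has no share over all genes beside it. A looser form of the consensus was present in the same number of member windows, 9, and in 12.3% of all windows. The looser form reads the same on both strands and covers the consensus, so a consensus match on 1 strand always brings a match on the other. Such a stretch was counted once. BCL3 had no match in its window. The windows of the genes with the highest fold changes are printed up to the first base of an annotated exon, 5′ to 3′ in the direction of the gene, with the kB matches in capitals.
TNFAIP3 chr6:137867009-137867213 (plus strand): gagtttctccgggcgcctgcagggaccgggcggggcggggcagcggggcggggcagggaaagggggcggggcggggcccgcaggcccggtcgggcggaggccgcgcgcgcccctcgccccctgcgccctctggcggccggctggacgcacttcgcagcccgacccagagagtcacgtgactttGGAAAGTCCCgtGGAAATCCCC
NFKBIZ chr3:101827740-101827989 (plus strand): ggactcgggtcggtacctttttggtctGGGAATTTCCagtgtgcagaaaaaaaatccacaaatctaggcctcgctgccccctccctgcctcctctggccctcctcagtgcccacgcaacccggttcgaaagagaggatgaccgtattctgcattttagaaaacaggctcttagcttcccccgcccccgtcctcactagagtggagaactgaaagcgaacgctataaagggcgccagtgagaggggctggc
NFKBIA chr14:35404750-35404999 (minus strand): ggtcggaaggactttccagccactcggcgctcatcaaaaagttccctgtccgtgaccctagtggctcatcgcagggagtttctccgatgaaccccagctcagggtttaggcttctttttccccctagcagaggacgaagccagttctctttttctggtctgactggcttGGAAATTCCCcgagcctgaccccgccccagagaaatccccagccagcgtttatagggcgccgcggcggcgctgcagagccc
BIRC3 chr11:102317234-102317483 (plus strand): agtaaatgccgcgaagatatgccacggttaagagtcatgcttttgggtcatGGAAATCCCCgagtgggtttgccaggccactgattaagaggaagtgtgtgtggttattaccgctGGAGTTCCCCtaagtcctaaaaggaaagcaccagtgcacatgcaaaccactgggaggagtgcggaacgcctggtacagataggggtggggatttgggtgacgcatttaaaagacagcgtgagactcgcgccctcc
TNFAIP3 has a pair of kB matches side by side, the nearer one ending 46 bases before the RefSeq start. That start lies past the first base of an annotated TNFAIP3 exon, where the printed window stops. BIRC3 has a pair whose nearer member ends 126 bases before the start. The NFKBIA match ends 72 bases before the start. The printed NFKBIZ window lies inside the overlapping gene NXPE3, described below. For NFKB1, NFKB2, TNIP1 and the second start of NFKBIZ, 30 bases around a match show the same element in other surroundings. NFKB2 had further matches in the same windows that are not printed. Unlike the windows above, the stretches of 30 bases were not cut at annotated exons. Only the NFKB1 stretch lies wholly before the first exon base in its window.
NFKB1 chr4:102501300-102501329 (plus strand): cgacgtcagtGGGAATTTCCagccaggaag
NFKB2 chr10:102394490-102394519 (plus strand): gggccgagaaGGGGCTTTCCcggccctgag
NFKB2 chr10:102395674-102395703 (plus strand): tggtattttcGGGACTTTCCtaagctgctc
TNIP1 chr5:151081057-151081086 (minus strand): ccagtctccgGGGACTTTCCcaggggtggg
NFKBIZ chr3:101849265-101849294 (plus strand): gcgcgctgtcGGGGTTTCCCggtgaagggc
A match describes letters in the window and does not show that NF-kB binds there. Matches were present in TNFAIP3 and NFKBIZ, which passed the test below, and also in NFKB1, NFKB2 and TNIP1, whose libraries overlapped between the lines.

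The lines were compared by limma, a linear model that shares variance across genes, on log2(normalised count + 1). The fit held 14684 genes whose mean reached 10 normalised counts, and all 10 genes were among them. To be called, a gene needed a fold change over 1.5 together with a Benjamini-Hochberg adjusted p value below 0.05, and 0.170% of the genes tested were called, 0.0817% higher in POLDIP2 KO and 0.0885% lower. Of the 10 genes, TNFAIP3 and NFKBIZ were called higher and 0 were called lower. Their log2 fold changes ran from 0.01 to 2.26 with a median of 0.40, beside 0.00 over all genes tested. All 10 estimates were above 0, as for 49.9% of all genes. At an unadjusted limma p value under 0.05, 5 of the 10 were higher and 0 lower, against 3.00% of all genes higher and 6.48% in either direction. Every POLDIP2 KO library lay above every WT library for 4 of the 10, against 5.46% of all genes, and below for 0, against 5.44%. The shares among the 10 are not independent evidence, because the genes were chosen with earlier results of these data known. TNFAIP3 and NFKBIZ were named by the study among the genes raised in these samples. With 3 libraries a line, exact permutation has 0.1 as its lowest two-sided p value.

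**Figure D1:**
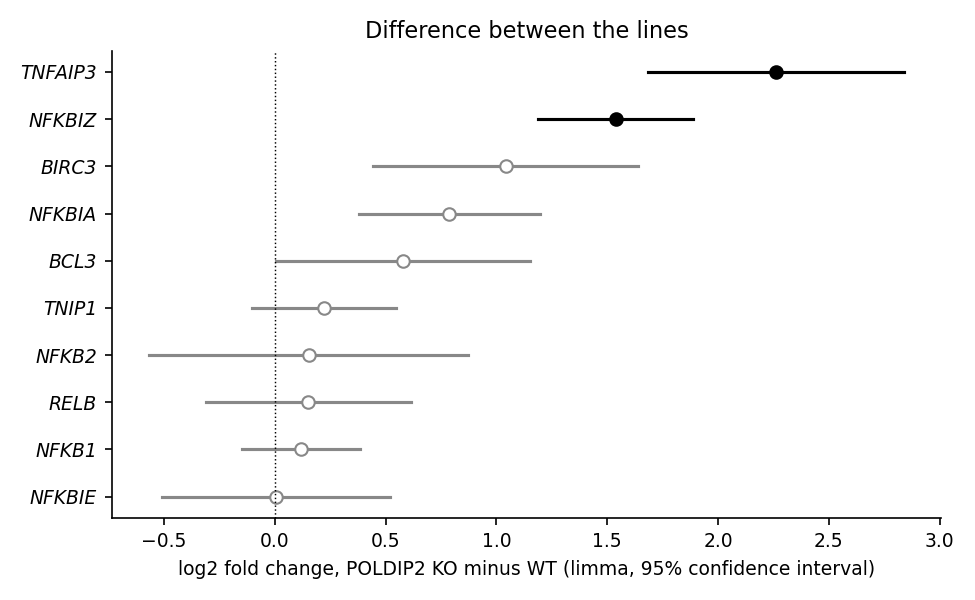
Points are limma log2 fold changes (POLDIP2 KO minus WT) of the 10 genes and lines their 95% confidence intervals; filled black points passed the adjusted threshold. TNFAIP3 at 2.26 and NFKBIZ at 1.54 passed, while the intervals of NFKB1, NFKB2, RELB, NFKBIE and TNIP1 include 0.

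TNFAIP3 encodes A20, a ubiquitin-editing enzyme that ends signalling from the receptor complexes upstream of the IkB kinases. The gene (ENSG00000118503) lies on the plus strand of chromosome 6 from 137867214 to 137883314. In the order of replicates 1, 2 and 3, used throughout, TNFAIP3 had 133, 219 and 198 normalised counts in WT against 1040, 891 and 696 in POLDIP2 KO. All 3 POLDIP2 KO libraries stood far above the highest WT library, and POLDIP2 KO replicate 1 was the highest. The fold change was 4.79 with a 95% confidence interval from 3.21 to 7.15 (limma adjusted p = 0.0340), which placed TNFAIP3 at rank 83 by fold change and rank 15 by p value among 14684 genes. When limma held the replicate number as a block, which called 0.116% of the genes tested higher, the adjusted p value of TNFAIP3 was 0.0586 and the call was lost, at the same log2 fold change of 2.26. NFKBIZ kept its call with the block (limma adjusted p = 0.0437).

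NFKBIZ encodes IkB-zeta, an atypical nuclear member of the IkB family that binds NF-kB on DNA and is needed for a second wave of target genes. The gene (ENSG00000144802) lies on the plus strand of chromosome 3 from 101827991 to 101861022. NFKBIZ had 320, 339 and 290 normalised counts in WT against 1049, 900 and 824 in POLDIP2 KO. The WT libraries lay close together, and the lines did not overlap. The fold change was 2.91 with a 95% confidence interval from 2.28 to 3.70 (limma adjusted p = 0.0231), rank 9 of 14684 by p value. The first 15753 bases of the annotated gene also belong to NXPE3, which is transcribed in the same direction and whose log2 fold change was 0.19 (95% confidence interval -0.30 to 0.68, limma adjusted p = 0.9998). How reads in the shared part were divided between NFKBIZ and NXPE3 was not tested.

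NFKBIA and BIRC3 also had libraries that did not overlap, with POLDIP2 KO above WT, but missed the adjusted threshold. NFKBIA encodes IkB-alpha, the classical inhibitor that is degraded on activation and made again as a target gene, and lies on the minus strand of chromosome 14 from 35401079 to 35404749. Normalised counts of NFKBIA were 901, 1346 and 1237 in WT against 1929, 2202 and 1820 in POLDIP2 KO. WT replicate 1 was the lowest library, and the POLDIP2 KO libraries lay close together. The fold change was 1.73 (95% confidence interval 1.30 to 2.29, limma adjusted p = 0.231). BIRC3 encodes cIAP2, a ubiquitin ligase that carries the signal of the tumour necrosis factor receptor and holds the alternative pathway in check, and lies on the plus strand of chromosome 11 from 102317484 to 102339403. BIRC3 had 220, 255 and 423 normalised counts in WT against 610, 625 and 546 in POLDIP2 KO. WT replicate 3 stood well above the other WT libraries and nearest to POLDIP2 KO. The fold change of BIRC3 was 2.06 (95% confidence interval 1.36 to 3.12, limma adjusted p = 0.291). DESeq2 on the recovered reads, which called 0.756% of the genes tested higher, called both, with adjusted p values of 0.00819 for NFKBIA and 0.0336 for BIRC3, while edgeR's quasi-likelihood test, which called 0.0613% higher, gave adjusted p values of 0.274 and 0.376. With the replicate block, DESeq2 called TNFAIP3, NFKBIZ, NFKBIA and BIRC3 (1.25% of the genes tested were called higher), and edgeR called 0 of the 10 (0.0204%), with 0.0801 for TNFAIP3 and 0.0603 for NFKBIZ.

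BCL3 encodes another nuclear IkB protein, which pairs with NF-kB homodimers, and lies on the plus strand of chromosome 19 from 44747705 to 44760044. BCL3 had 182, 245 and 328 normalised counts in WT against 373, 322 and 408 in POLDIP2 KO, so that WT replicate 3 overlapped with POLDIP2 KO replicate 2. The fold change was 1.49 (95% confidence interval 1.00 to 2.22, limma adjusted p = 0.765). TNIP1 encodes ABIN1, a ubiquitin-binding partner of A20, and lies on the minus strand of chromosome 5 from 151029945 to 151093577. TNIP1 had 6681, 5840 and 5777 normalised counts in WT against 8236, 7143 and 6058 in POLDIP2 KO, where replicate 3 fell below WT replicate 1. The fold change of TNIP1 was 1.16 (95% confidence interval 0.930 to 1.46, limma adjusted p = 0.983). NFKBIE encodes IkB-epsilon, a classical inhibitor like IkB-alpha, and lies on the minus strand of chromosome 6 from 44258166 to 44265788. The NFKBIE counts of 478, 734 and 644 in WT against 509, 753 and 597 in POLDIP2 KO gave a fold change of 1.00 (95% confidence interval 0.704 to 1.43, limma adjusted p = 0.9998). Its WT and POLDIP2 KO libraries covered nearly the same range, lowest in replicate 1 of either line. Whether the fold changes of the classical inhibitors NFKBIA and NFKBIE differ was not tested.

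The subunit genes overlapped between the lines. NFKB1 encodes the precursor of the p50 subunit, on the plus strand of chromosome 4 from 102501330 to 102617302. NFKB1 had 1905, 2151 and 2371 normalised counts in WT against 2260, 2401 and 2289 in POLDIP2 KO, a fold change of 1.09 (95% confidence interval 0.902 to 1.31). NFKB2 encodes the precursor of the p52 subunit of the alternative pathway, on the plus strand of chromosome 10 from 102394110 to 102402524. NFKB2 had 137, 167 and 212 normalised counts in WT against 156, 280 and 152 in POLDIP2 KO, where replicate 2 alone exceeded every WT library. The NFKB2 fold change was 1.11 with a wide interval from 0.675 to 1.83. RELB, the partner of p52, lies on the plus strand of chromosome 19 from 45001461 to 45038192. RELB had 308, 418 and 396 normalised counts in WT against 491, 406 and 350 in POLDIP2 KO, a fold change of 1.11 (95% confidence interval 0.805 to 1.53). The limma adjusted p value was 0.9998 for NFKB1, NFKB2 and RELB, and the intervals of NFKB2 and RELB leave room for a change of 1.5-fold, while that of NFKB1 does not.

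**Figure D2:**
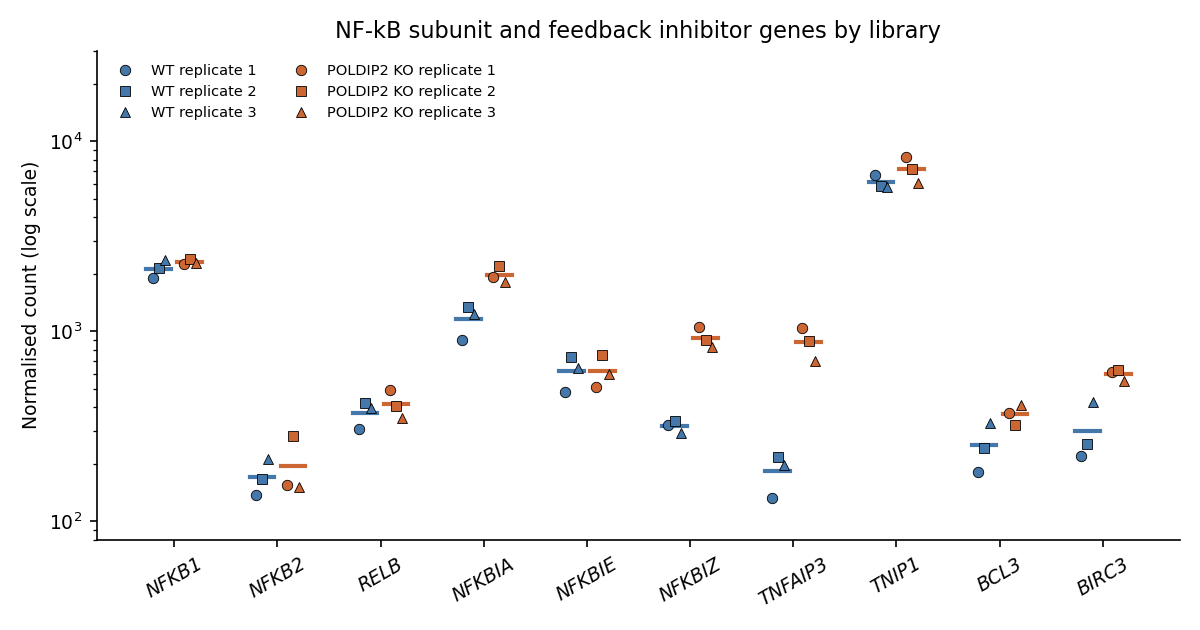
Normalised counts (log scale) of the 10 genes in each library; blue is WT, orange is POLDIP2 KO, the symbol gives the replicate number and bars are means of 3 libraries. The lines are apart for NFKBIA, NFKBIZ, TNFAIP3 and BIRC3 and overlap for the other 6 genes.

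The same libraries were set side by side by replicate number, although the labels do not state that same-numbered libraries were made together. In TNFAIP3 the log2 difference of POLDIP2 KO from WT was 2.95 for replicate 1, 2.02 for replicate 2 and 1.81 for replicate 3. In NFKBIZ the log2 differences lay between 1.40 and 1.71, the most even of the 4 genes that did not overlap. In NFKBIA they were 1.10, 0.71 and 0.56, and in BIRC3 1.47, 1.29 and 0.37. For these genes, BCL3 and TNIP1, which makes 6 of 10, POLDIP2 KO was higher in all 3 pairs, against 17.0% of all genes tested. RELB was higher in the pair of replicate 1 only, with log2 differences of 0.67, -0.04 and -0.18, and NFKB2 ranged from -0.48 in replicate 3 to 0.75 in replicate 2. The pair of replicate 1 gave the largest difference for 9 of the 10 genes, NFKB2 being the exception, against 34.6% of all genes, and the pair of replicate 3 gave the smallest for 9, NFKBIZ being the exception, against 32.5%. In WT, replicate 1 was the lowest library for 8 of the 10 genes, all but NFKBIZ and TNIP1, against 35.6% of all genes. Without WT replicate 1 the log2 fold changes were 2.05 for TNFAIP3, 1.55 for NFKBIZ, 0.62 for NFKBIA and 0.85 for BIRC3, and that of BCL3 was 0.37 in place of 0.58. With any 1 of the 6 libraries left out, whether of WT or of POLDIP2 KO, limma called 0 of the 10 genes, with adjusted p values from 0.0569 to 0.112 for NFKBIZ and from 0.0635 to 0.151 for TNFAIP3. The log2 fold change stayed between 1.44 and 1.62 for NFKBIZ and between 2.05 and 2.42 for TNFAIP3 in those fits, which left 693 to 1075 genes at an unadjusted p value under 0.05.

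**Figure D3:**
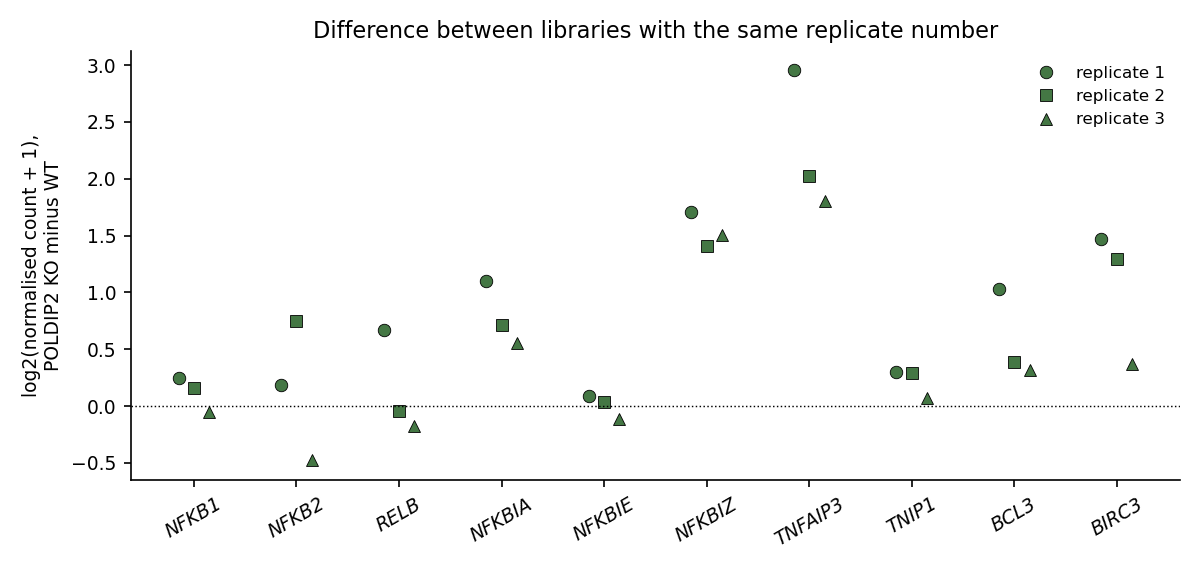
Difference in log2(normalised count + 1) between the POLDIP2 KO and WT libraries of the same replicate number, for the 10 genes. All 3 pairs are above 0 for NFKBIA, NFKBIZ, TNFAIP3, TNIP1, BCL3 and BIRC3, and replicate 1 (circles) is highest for all genes but NFKB2.

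Levels were compared between genes per kilobase of merged exons. TNIP1 was the highest in both lines, with 1053 ± 87.1 normalised counts per kilobase in WT and 1233 ± 188 in POLDIP2 KO (SD, n = 3 libraries each). NFKBIA came next in both lines, with 342 ± 68.3 per kilobase in WT and 584 ± 58.0 in POLDIP2 KO. In WT its libraries overlapped with those of NFKBIE at 240 ± 50.4 per kilobase, whereas in POLDIP2 KO the 2 genes were apart. TNFAIP3 was the lowest of the 10 in WT at 28.5 ± 6.93 per kilobase, a level that overlapped with NFKB2 at 30.8 ± 6.76. In POLDIP2 KO, TNFAIP3 reached 136 ± 26.7 per kilobase and rank 7, overlapping with RELB above it and BCL3 below it. NFKBIZ moved from rank 7 in WT (53.6 ± 4.18 per kilobase) to rank 4 in POLDIP2 KO (157 ± 19.4 per kilobase), where its libraries overlapped with those of NFKB1 at 148 ± 4.77. NFKB2 was the lowest gene in POLDIP2 KO at 35.1 ± 13.0 per kilobase, below BIRC3 at 79.3 ± 5.61 without overlap. These levels use all annotated exons of a gene, and the exons that ARPE-19 cells use were not examined.

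**Figure D4:**
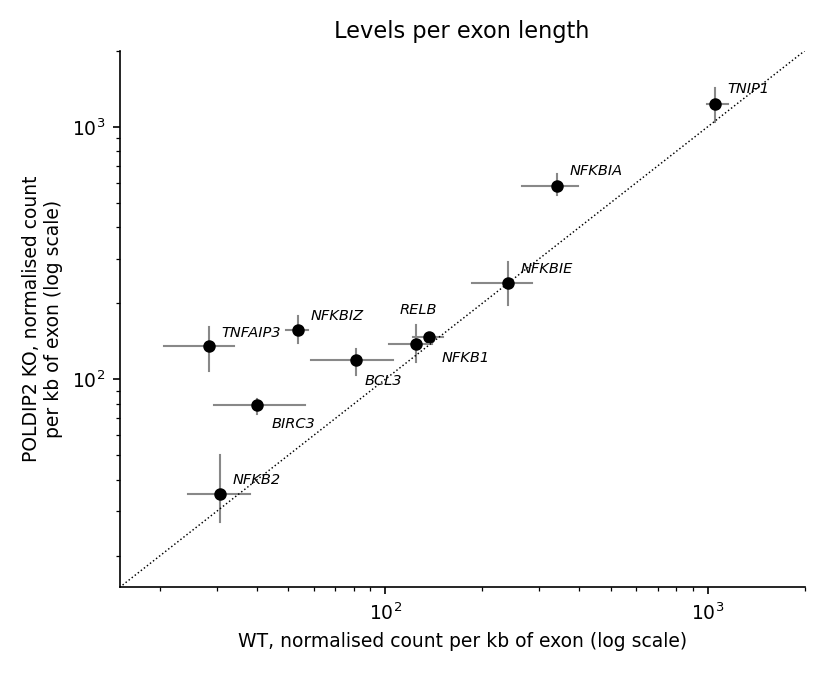
Mean normalised count per kilobase of merged exons in WT (x axis, log scale) and POLDIP2 KO (y axis, log scale) for the 10 genes; lines span the 3 libraries of each line and the dotted diagonal marks equal levels. TNFAIP3 and NFKBIZ lie farthest above the diagonal, while NFKBIE, at 240 in both lines, lies on it.

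The rest of the pathway was described with 6 lists of genes grouped by role, 83 genes in all, of which 80 were matched to a row by symbol and 67 passed the expression filter. Among these 67, 3 were called higher and 0 lower, against 0.0817% and 0.0885% of all genes tested. Their median log2 fold change was 0.11. SOD2, a target gene that encodes a mitochondrial superoxide dismutase, is not in these counts, because its row could not be named with the annotation used here. The receptors had a median of 0.44 over 9 genes tested, with 0 called. TNFRSF11A, the receptor RANK, had the highest receptor value, with 221, 143 and 227 normalised counts in WT against 448, 680 and 511 in POLDIP2 KO (log2 fold change 1.47, 95% confidence interval 0.88 to 2.06, limma adjusted p = 0.117). TNFRSF12A, the receptor for TWEAK, had the lowest, with a log2 fold change of -0.15. CD40 was at 0 in every library.

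Adaptors and ubiquitin ligases had a median log2 fold change of 0.02 over 17 genes, with 0 called. Their highest value was that of TRAF1, an adaptor of tumour necrosis factor receptors, with 328, 555 and 622 normalised counts in WT against 962, 1023 and 739 in POLDIP2 KO (log2 fold change 0.89, limma adjusted p = 0.457). Their lowest was TRAF6, which relays interleukin-1 and Toll-like receptor signals, at -0.39 (limma adjusted p = 0.819). The kinases had a median of 0.13 over 12 genes, with 0 called, from -0.60 for TBK1, which activates the interferon response, to 0.63 for MAP3K8, a kinase bound by the NFKB1 precursor. TBK1 was measured at 8.61 to 60.6 normalised counts, and the 95% confidence interval of its log2 fold change ran from -2.31 to 1.11. The deubiquitinases and partners of A20 had a median of -0.04 over 7 genes with 0 called, from -0.30 for CYLD, which removes linear and K63 ubiquitin chains, to 0.18 for ITCH, a ubiquitin ligase of the A20 complex. Of the other subunits and inhibitors, RELA, the main activating subunit, was at 0.33 on the log2 scale, with a 95% confidence interval from -0.09 to 0.76, and NFKBID, a nuclear IkB protein, was at 0.02, with 0 of 3 called. At an unadjusted limma p value under 0.05, 3.00% of all genes tested were higher. Among the lists, these were 3 of 9 receptors, 2 of 17 adaptors and ubiquitin ligases and 2 of 12 kinases. They were 0 of 7 deubiquitinases and partners of A20, 0 of 3 other subunits and inhibitors, and 11 of the 20 target genes described next.

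The target genes had the highest median, 1.54 over 20 genes tested of 30 listed, and 3 were called: IL1B, TNFRSF9 and CCL2. IL1B, which encodes the cytokine interleukin-1 beta, ranged from 4.18 to 10.03 normalised counts in WT, where its lowest library had 4 reads, against 199.6 to 485 in POLDIP2 KO, the highest log2 fold change of the list at 5.49 (limma adjusted p = 0.0204). TNFRSF9, which encodes the receptor 4-1BB, differed by 2.43 on the log2 scale (limma adjusted p = 0.0281). CCL2, which encodes a monocyte chemokine, differed by 2.16 (limma adjusted p = 0.0204). For 12 of the 20 the libraries of the lines did not overlap, all higher in POLDIP2 KO, against 5.46% of all genes. The lowest value was that of BCL2L1, which encodes a survival protein, at -0.19. VCAM1, SELE and TNF were at 0 in every library. Several of these targets were named by the study from these samples, so the list is not independent evidence of its direction.

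**Figure D5:**
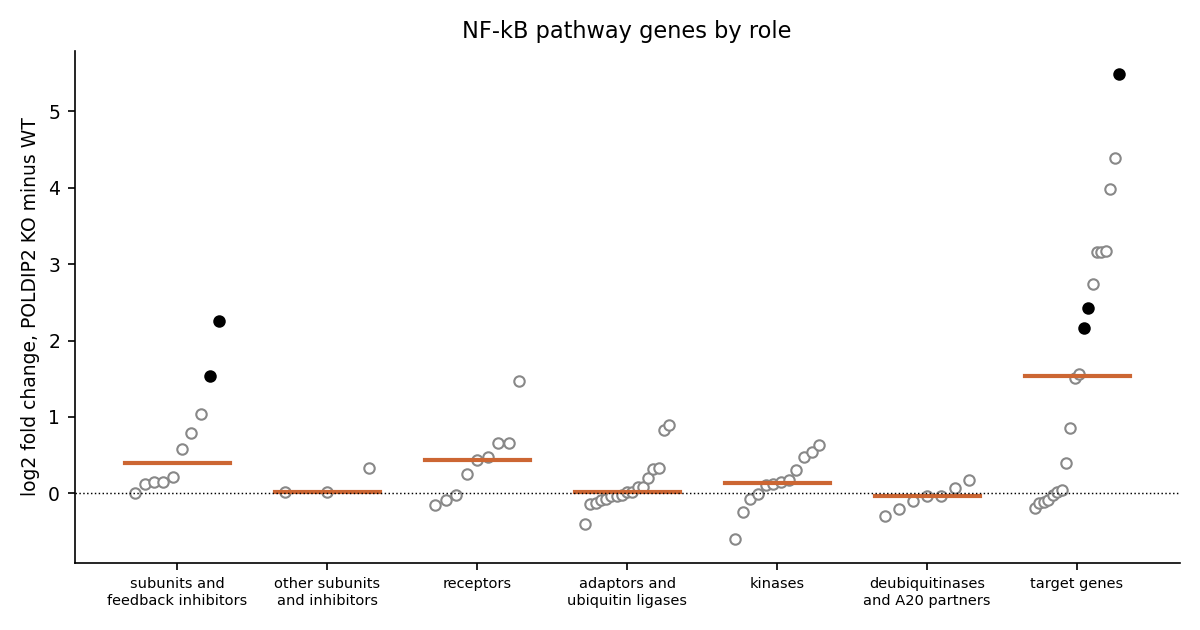
Limma log2 fold change of each gene tested in the NF-kB pathway, grouped by role; orange bars are list medians and filled black points passed the adjusted threshold. The medians are 0.40 for the 10 genes described here (labelled subunits and feedback inhibitors), 1.54 for the target genes and between -0.04 and 0.44 for the other lists.

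The genes whose profile over the 6 libraries was most like the mean standardised profile of the 10 genes were TRAF1 (Pearson r = 0.998), PHKG1 (0.997), CD70 (0.994), NPL (0.993) and FST (0.983), out of 14674 other genes compared. CD70 is a ligand of the tumour necrosis factor family and FST encodes follistatin, which binds activin, while PHKG1 was measured at only 6.61 to 19.5 normalised counts. In each of these 5 genes the POLDIP2 KO libraries lay above the WT libraries without overlap, against 5.46% of all genes tested. This follows largely from how the 5 were picked, because the correlations include the difference between the lines. A correlation of at least 0.9 was reached by 123 genes. Within the 10 genes the correlation with their own mean profile ran from 0.410 for NFKBIE to 0.968 for NFKBIA. It was 0.916 for TNFAIP3 and 0.820 for NFKBIZ. That mean includes the gene itself, which raises these values, so they do not compare with those of other genes. With 6 libraries these values describe the profiles only.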

How the data were processed

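Polyadenylated RNA of 3 WT and 3 POLDIP2 KO cultures was measured by stranded single-end sequencing. The signal in each column is a normalised count that the authors made before depositing it: Salmon 1.8 estimated transcript abundance, tximport brought it to genes of GRCh38, and DESeq2 1.34.0 supplied the size factor of each library. The annotation release and whether strand was used are not given in the sources used here. All columns were used, so 0 were left out. Gene names came from GENCODE release 44 (34152 of 37902 genes); for 3 listed pathway genes, NFKBIB, RNF31 and SOD2, no row carried the gene ID that this release pairs with the symbol, and they are not analysed here. SOD2 was measured by the study, so that its absence from the lists comes from this naming and not from its expression.

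Counts were recovered by dividing each column by its lowest value above 0, and 100% of values came out whole within 0.001. In WT replicate 2 and POLDIP2 KO replicate 3 that step is close to 1, so whole low values say little there. The recovered reads assigned to genes summed to 31532797 to 45795509 a library, which is not the sequencing depth.

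The main test was limma 3.58.1 (R 4.3.3): lmFit, then eBayes with a mean-variance trend, whose prior had 3.02 degrees of freedom, on log2(normalised count + 1). Genes below a mean of 10 were left out, and Benjamini-Hochberg adjustment covered all 14684 others. Adding 1 understates fold changes of low genes. A call needed adjusted p below 0.05 and a change above 1.5-fold. The replicates are described as biological without further detail. The p values set the difference between the lines against the spread of the libraries within them. They hold for this knockout line and this WT line only. edgeR 4.0.16 and DESeq2 1.42.0 on the recovered reads were alternatives, with the others named in the closing section. The fits were tested on simulated data. Python 3.11.15 made the tables and figures.

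The members and lists were chosen with earlier results of these data known. The genes named are POLDIP2, the members, called genes and the highest and lowest of each list, and the 5 genes most like the members' profile; NXPE3, the listed genes at 0 and the marker genes with values were named after their values were seen. For the leukocyte markers, 1 gene is part of the sum and is not reported here by name.

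Same-numbered libraries, centred within each line, correlated at 0.315, 0.137 and 0.129 across genes, all over 0.1. Other combinations ran from -0.259 to 0.147. The highest, WT replicate 3 with POLDIP2 KO replicate 2, exceeded the same-numbered values of replicates 2 and 3. The replicate number was used as a block in an alternative, although the labels do not state that same-numbered libraries were made together.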

Additional observations from a re-analysis of the deposited data

How the results depend on the processing

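Genes called higher and lower in POLDIP2 KO numbered 12 and 13 in limma, 111 and 137 in DESeq2, 184 and 208 in DESeq2 with the replicate block, and 3 and 2 in edgeR with the replicate block; genes called lower numbered 8 in edgeR and 6 with a mean of at least 50. With 1 library left out, 0 to 8 genes were called higher and 0 to 5 lower. Of the 10 genes described here 2 were called by limma, 1 (NFKBIZ) without the eBayes trend and 1 (NFKBIZ) with the replicate block in limma, 4 in DESeq2 with and without the block (NFKBIA and BIRC3 added), 0 in edgeR with the replicate block and 0 with any library left out. Of the other pathway genes 3 were called by limma, 11 by DESeq2, 16 by DESeq2 with the replicate block, 1 by edgeR with the replicate block, and 0 to 3 with a library left out. The cause of these differences was not tested; fits without a library have fewer samples. The pseudocounts of 0.5 and 5, no filter, edgeR without the block, the stricter filter at 50, quantile normalisation, recentred libraries and robust eBayes left both calls in place, and the block changed no other call among the 10 genes in limma. Over 190 alternative values of the 10 log2 fold changes, 187 kept their direction. The exceptions were NFKB2 at -0.134 without POLDIP2 KO replicate 2, and NFKBIE at -0.169 without WT replicate 1 and -0.144 without POLDIP2 KO replicate 2. With 1 library left out, NFKB2 ranged from -0.134 to 0.314 and NFKBIE from -0.169 to 0.140. The adjusted p values ranged from 0.0243 to 0.0586 for TNFAIP3 and from 0.0191 to 0.0437 for NFKBIZ over the limma alternatives with all libraries. Each of the 10 genes had at least 127 reads in each library, whereas TBK1 had as few as 7 and IL1B as few as 4, where counting error limits the values.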
